A study of Mus musculus with 9 samples.

Results

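Fat cell differentiation was followed here through 10 genes: the transcription factors Pparg, Cebpa, Cebpb and Cebpd, the fatty acid carriers Fabp4 and Cd36, the lipase Lpl, the lipid droplet proteins Plin2 and Pnpla2, and the hormone gene Adipoq. They were chosen by name, with earlier results of these data known. Each is represented by the brightest probe whose RefSeq accession maps to it. All 10 were on the array, and 8 passed the filter on dim probes and entered the tests, among 21797 features tested in all, 12434 of them named genes. Adipoq and Cd36 did not pass.

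The cells were clones of mouse embryonic cells with the genotype p53-/-, without the tumour suppressor p53, and they differed in ploidy, the number of chromosome sets. There were 3 triploid clones (RRI2-5, RRI2-12 and RRI2-15), 3 tetraploid clones (RRI2-2, RRI2-4 and RRI2-6) and 3 diploid clones (RRI2, RRI15 and RRI2-1), numbered 1 to 3 in that order within each group. All 9 were grown without treatment in MEM with 10% fetal bovine serum, so none had received a mixture that induces fat cells. RNA of each clone was hybridised to 1 one-colour Agilent array. Strain, sex and age of the embryos are not given in the labels, nor whether clones came from separate embryos or cultures, so p-values measure only the spread between these clones, which may in part be technical. The free-text descriptions of 8 clones carry other numbers in place of p53, while the genotype field names p53 for all 9.

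A few values describe the series. Per array, 44.8% to 50.9% of spots passed the background call. Diploid clone 1 sat on a slide of its own, and the other 8 arrays shared another slide. Triploid clone 1 stood apart from its group: across features it correlated with the other triploid clones at Pearson's r of 0.948 and 0.956, against 0.985 between triploid clones 2 and 3, and at 0.964 with diploid clone 2. The Trp53 probe, for p53 itself, was lit in 1 clone of 9, diploid clone 2, and whether it lies in the deleted part was not given in the sources used here. The Y-linked gene Ddx3y was above background in 0 triploid, 2 tetraploid and 3 diploid clones, so the groups differed in more than ploidy.

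In fat cell differentiation as known from mouse precursor lines, C/EBP beta and C/EBP delta act early and help to switch on PPAR gamma and C/EBP alpha, which then maintain each other. PPAR gamma binds DNA together with a retinoid X receptor. Its target genes take up fatty acids, carry them within the cell, store them in droplets and release them again. Several of these genes are also active in macrophages, endothelium and other cells, and C/EBP beta and delta respond to inflammatory signals in many cell types.

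The mouse Pparg gene has alternative start sites, and the transcript typical of fat cells begins at the site furthest downstream. One probe measured the gene, so its start sites could not be told apart. Promoter windows from 250 bases before to 50 bases after a start site were read from RefSeq (GRCm38.p6), and 7 of the 10 genes had at least 1. Fabp4, Lpl and Cebpd had none in the table used. The 3 Pparg windows and the Cebpb window are printed because these genes passed a test below. Capitals mark matches on either strand to the C/EBP motif TTGCNNAA, to AGGTCA, to the TATA box TATAAA, to the AP-1 motif TGANTCA or to the SREBP motif TCACNCCAC. AGGTCA is the unit of the direct repeat that PPAR gamma and its partner bind, and a single unit is not that repeat. The windows lie at chr6:115360894-115361193, chr6:115362099-115362398 and chr6:115421816-115422115 for Pparg and at chr2:167688665-167688964 for Cebpb, all on the plus strand.
Pparg window 1: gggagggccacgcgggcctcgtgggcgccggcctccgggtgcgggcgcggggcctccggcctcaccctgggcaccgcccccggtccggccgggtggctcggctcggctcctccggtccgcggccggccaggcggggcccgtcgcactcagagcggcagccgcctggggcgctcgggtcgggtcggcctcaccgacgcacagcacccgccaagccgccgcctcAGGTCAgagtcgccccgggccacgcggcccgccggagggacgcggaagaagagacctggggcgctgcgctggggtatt
Pparg window 2: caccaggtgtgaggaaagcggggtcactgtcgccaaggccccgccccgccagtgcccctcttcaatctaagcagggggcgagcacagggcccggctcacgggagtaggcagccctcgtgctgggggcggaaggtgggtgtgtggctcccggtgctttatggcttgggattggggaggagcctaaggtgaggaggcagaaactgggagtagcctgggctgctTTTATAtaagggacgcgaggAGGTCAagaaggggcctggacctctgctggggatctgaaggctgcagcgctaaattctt
Pparg window 3: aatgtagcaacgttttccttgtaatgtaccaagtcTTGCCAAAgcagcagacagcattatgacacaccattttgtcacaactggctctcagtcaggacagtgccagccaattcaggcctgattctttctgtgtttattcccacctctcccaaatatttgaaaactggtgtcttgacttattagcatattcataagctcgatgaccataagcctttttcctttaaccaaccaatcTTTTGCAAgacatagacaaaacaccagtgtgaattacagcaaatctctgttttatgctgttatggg
Cebpb window: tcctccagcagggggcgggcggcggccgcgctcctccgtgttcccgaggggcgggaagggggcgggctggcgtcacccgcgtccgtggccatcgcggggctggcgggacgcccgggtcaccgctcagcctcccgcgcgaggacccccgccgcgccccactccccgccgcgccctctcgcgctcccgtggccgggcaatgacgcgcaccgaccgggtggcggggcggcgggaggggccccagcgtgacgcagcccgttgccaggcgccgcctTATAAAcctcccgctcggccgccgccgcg

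Pparg windows 1 and 2 each held 1 match to AGGTCA, beginning 28 and 9 bases before the start. Window 2 also held a match to TATAAA on the opposite strand, read as TTTATA, beginning 29 bases before the start. Window 3, the one furthest downstream, held 2 C/EBP matches, beginning 215 and 16 bases before the start. The Cebpb window held 1 match, to TATAAA, beginning at base 22 after the start and not before it. Of 32851 promoter windows in the table, 10.8% held the C/EBP motif, 16.3% AGGTCA, 13.6% the TATA box, 7.81% the AP-1 motif and 1.24% the SREBP motif. The direct repeat that PPAR gamma and its partner bind, which contains AGGTCA, was found in 13 windows of the table, and not in those of these genes. G and C made up 80.3%, 62.7% and 40.3% of the Pparg windows and 80.7% of the Cebpb window, against a median of 52.7% over the table. A match is a run of letters and not a measured binding site.

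The triploid clones had far less Fabp4 signal than the diploid or tetraploid clones, less Pparg signal than the tetraploid clones, and more Cebpb signal than the diploid clones. The fat hormone Adipoq was dark in all triploid and all tetraploid clones, and passed the background call in 1 of 3 diploid clones. Values below are log2 processed signals after subtraction of the array’s 75th percentile, so that 0 is that percentile, and they compare clones at 1 gene, not genes with each other. Differences come from limma fitted over all features and are called at an adjusted p under 0.05. Of the calls named above, only Fabp4 against the tetraploid clones held in all 20 alternative settings of the processing, and Cebpb held in 10 of 20. The tetraploid Cebpb values also lay above the diploid ones. On RNA from whole cultures, fewer cells that express a gene and less RNA per cell cannot be told apart.

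**Figure D1:**
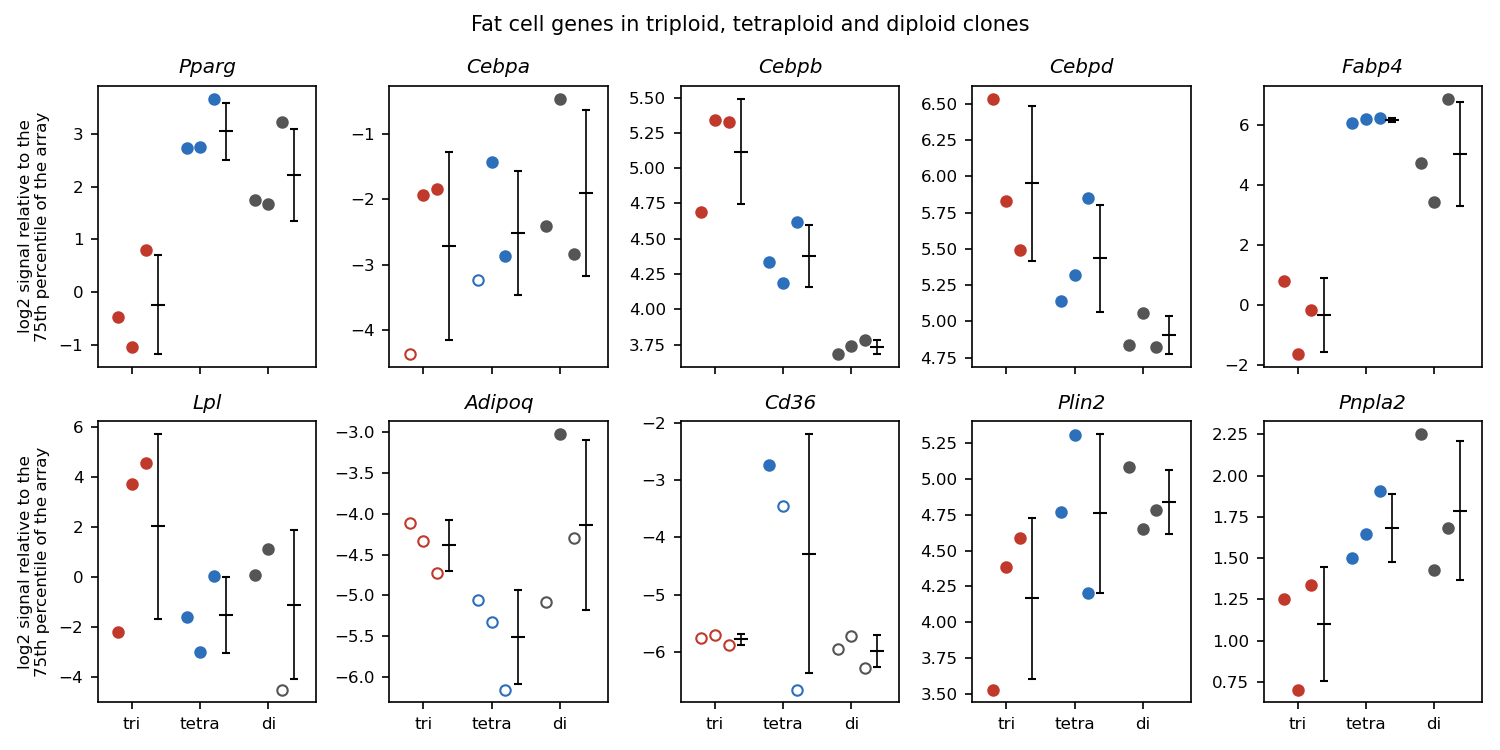
Log2 signal of each of the 10 genes (y axis, minus the array’s 75th percentile, own scale per panel) in the 3 triploid, 3 tetraploid and 3 diploid clones (x axis, clones 1 to 3 from left to right within a group). Filled circles are well above background and open circles are not, and the bar beside each group is the mean with its SD. Fabp4 lies at or below 0.81 in the triploid clones and at or above 3.44 in all others.

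Fabp4 encodes a small carrier that ferries fatty acids inside fat cells, macrophages and some endothelium. Its log2 values were 0.81, -1.65 and -0.16 in triploid clones 1 to 3, 6.07, 6.19 and 6.22 in the tetraploid clones, and 4.74, 3.44 and 6.87 in the diploid clones. It was above background on all 9 arrays. All 3 triploid values lay below all 6 others, the tetraploid values lay within 0.16 of each other, and the diploid clones spread over 3.43 log2 units. The triploid clones averaged -0.33 ± 1.24 and the diploid clones 5.02 ± 1.73 (SD, n = 3 each), a log2 difference of -5.35 ± 0.83 (SE, adjusted p = 0.0220) or 40.7-fold. Against the tetraploid clones, at 6.16 ± 0.08 (SD, n = 3), the triploid clones were lower by 90.1-fold, a log2 difference of -6.49 ± 0.83 (SE, adjusted p = 0.00759). The tetraploid and diploid clones did not differ past the threshold, with a log2 difference of 1.14 and a 95% interval of -0.73 to 3.02 (adjusted p = 0.550). Leaving out 1 clone moved the log2 difference from the diploid clones over a range of -6.14, without diploid clone 2, to -4.42, without diploid clone 3, and it was -5.92 without triploid clone 1 (adjusted p = 0.00813). It missed the threshold without diploid clone 1, which is the same as slide taken as a block (-5.49, adjusted p = 0.0672), without triploid clone 2 (-4.69, adjusted p = 0.0714), without triploid clone 3 (-5.44, adjusted p = 0.0789) and when fitted without the tetraploid clones (adjusted p = 0.0582). The difference from the tetraploid clones passed in all 20 alternative settings, at log2 differences of -7.06, without triploid clone 1, to -5.83, without triploid clone 2.

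Pparg encodes PPAR gamma, the nuclear receptor that fat cell differentiation requires. Its values were -0.47, -1.04 and 0.80 in the triploid clones, 2.74, 2.75 and 3.67 in the tetraploid clones, and 1.75, 1.68 and 3.23 in the diploid clones, above background in each. The triploid values lay below all others, and the tetraploid and diploid values overlapped. Between triploid and tetraploid clones the log2 difference was -3.29 ± 0.56 (SE, adjusted p = 0.0233), or 9.80-fold. This call ended without tetraploid clone 1 (adjusted p = 0.0640), tetraploid clone 3 (adjusted p = 0.0863) or triploid clone 2 (adjusted p = 0.0830), and held without triploid clone 1 (-3.18, adjusted p = 0.0283). Between triploid and diploid clones the log2 difference was -2.46 with a 95% interval of -3.72 to -1.20, and it did not pass (adjusted p = 0.0629). It passed with the array scaled to probes above background on all arrays (-2.60, adjusted p = 0.0499) and over those probes alone (adjusted p = 0.0487). It also passed with clone number as a block (adjusted p = 0.0148), although clone numbers did not pair the clones. Tetraploid and diploid clones differed by 0.83, with an interval of -0.43 to 2.09 (adjusted p = 0.517).

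Across the 9 clones Pparg and Fabp4 ordered almost alike, with Pearson's r of 0.943 and Spearman's rho of 0.967. Without the 2 clones farthest from the median of Pparg, r was 0.905, and it was 0.655 for deviations from the group means. The 9 points share the split between triploid clones and the rest, so these values are a description. Diploid clone 3 had the highest Pparg and the highest Fabp4 of its group, and triploid clone 2 had the lowest of both among all clones.

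**Figure D2:**
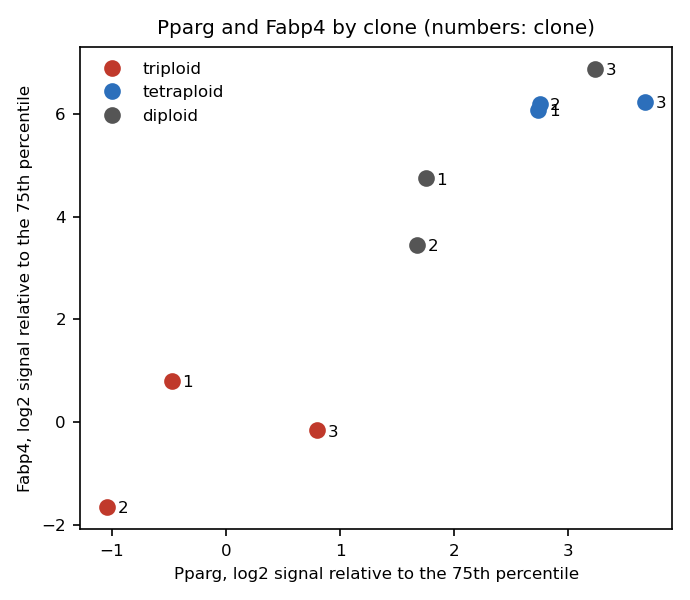
Fabp4 (y axis) against Pparg (x axis), both as log2 signal minus the array’s 75th percentile, with 1 point per clone and its number beside it. The 3 triploid clones lie at the lower left, with Pparg at or below 0.80 and Fabp4 at or below 0.81.

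Among the C/EBP factors, Cebpb and Cebpd had their highest group mean in the triploid clones, while the Cebpa values of the 3 groups overlapped. Cebpb, whose protein acts at the onset of differentiation, had values of 4.69, 5.34 and 5.33 in the triploid clones, 4.34, 4.19 and 4.62 in the tetraploid clones and 3.68, 3.74 and 3.78 in the diploid clones. The 3 groups did not overlap, and the diploid clones lay within 0.10 of each other. Cebpb rose in triploid over diploid clones by a log2 difference of 1.38 ± 0.24 (SE, adjusted p = 0.0318), or 2.61-fold. The tetraploid minus diploid difference was 0.65, with an interval of 0.10 to 1.19 (adjusted p = 0.262). The triploid minus tetraploid difference was 0.74, with an interval of 0.19 to 1.28 (adjusted p = 0.131), and neither passed. The call against the diploid clones held in 10 of 20 alternative settings, at log2 differences of 1.23 to 1.60. It ended without diploid clone 1, 2 or 3, tetraploid clone 1, or triploid clone 2 or 3 (adjusted p of 0.0653 to 0.126). Without triploid clone 1 it held (1.60, adjusted p = 0.00732), and Cebpb then also passed between triploid and tetraploid clones (0.95, adjusted p = 0.0471). With clone number as a block the adjusted p was 0.0534.

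Cebpd, the partner of Cebpb early in differentiation, had values of 6.54, 5.83 and 5.49 in the triploid clones, 5.14, 5.32 and 5.85 in the tetraploid clones, and 4.84, 5.06 and 4.82 in the diploid clones. All 6 polyploid values lay above the 3 diploid values, and the triploid and tetraploid values overlapped. The triploid minus diploid difference of 1.05, with an interval of 0.35 to 1.74, did not pass (adjusted p = 0.110), and was 0.75 without triploid clone 1, the highest of its group (adjusted p = 0.142). Cebpa encodes the factor that maintains the mature fat cell state. It was dim, at -4.37, -1.93 and -1.84 in the triploid clones, -3.23, -1.43 and -2.87 in the tetraploid clones and -2.40, -0.46 and -2.84 in the diploid clones, and was not well above background in triploid clone 1 and tetraploid clone 1. The groups overlapped, and the log2 difference between triploid and diploid clones was -0.81, with an interval of -2.69 to 1.07 (adjusted p = 0.630).

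Uptake of fatty acids was represented by the RNA signals of Lpl and Cd36, and uptake itself was not measured. Lpl, the lipase that frees fatty acids from circulating lipoproteins, varied more between clones of 1 group than any other of the 8 genes tested. Its values were -2.20, 3.72 and 4.57 in the triploid clones, -1.61, -2.99 and 0.05 in the tetraploid clones, and 0.10, 1.11 and -4.49 in the diploid clones, the last not above background. Triploid clones 2 and 3 thus stood above all other clones, while triploid clone 1 lay within the range of the others. The triploid minus diploid difference of 3.12 had an interval of -1.18 to 7.42 (adjusted p = 0.386). It was 5.23 without triploid clone 1 (adjusted p = 0.0780), 1.85 without triploid clone 3 and 1.42 without diploid clone 3, so single clones set its size. A dimmer Lpl probe gave -4.05, 1.47 and 2.88 in the triploid clones, -3.31, -4.57 and -2.10 in the tetraploid clones, and -1.92, -0.19 and -5.63 in the diploid clones, and was also highest in triploid clones 2 and 3.

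Cd36 encodes a surface receptor that takes up long-chain fatty acids. It was well above background in tetraploid clone 1 alone, at -2.74, and tetraploid clone 2 had -3.45 without passing the background call. In the triploid clones its values lay between -5.88 and -5.70, and in the diploid clones between -6.27 and -5.71, all dark. No fold is given, since both of these groups were below background on all their arrays.

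Storage and release of fat were represented by Plin2 and Pnpla2, and neither passed a test. Plin2 coats lipid droplets in many cell types. It had values of 3.53, 4.38 and 4.59 in the triploid clones, 4.77, 5.31 and 4.20 in the tetraploid clones, and 5.09, 4.65 and 4.78 in the diploid clones. The triploid values lay below the diploid ones by little, at a log2 difference of -0.67 with an interval of -1.48 to 0.14 (adjusted p = 0.319), and the difference was -0.35 without triploid clone 1. Pnpla2 encodes the lipase that starts the breakdown of stored triglyceride. It had 1.25, 0.70 and 1.34 in the triploid clones, 1.50, 1.64 and 1.90 in the tetraploid clones, and 2.25, 1.43 and 1.68 in the diploid clones. The triploid values lay below all others, at -0.69 against the diploid clones with an interval of -1.33 to -0.05 (adjusted p = 0.206). Neither Plin2 nor Pnpla2 differed between tetraploid and diploid clones by more than the spread, at -0.08 (interval -0.89 to 0.73) and -0.10 (interval -0.74 to 0.53).

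Adipoq encodes adiponectin, a hormone made by mature fat cells. Diploid clone 2 alone, at -3.02, passed the background call. The other clones had values from -4.72 to -4.11 when triploid, from -6.16 to -5.06 when tetraploid, and of -5.09 and -4.29 when diploid, so Fabp4 signal in the tetraploid and diploid clones was not accompanied by Adipoq signal except in diploid clone 2.

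**Figure D3:**
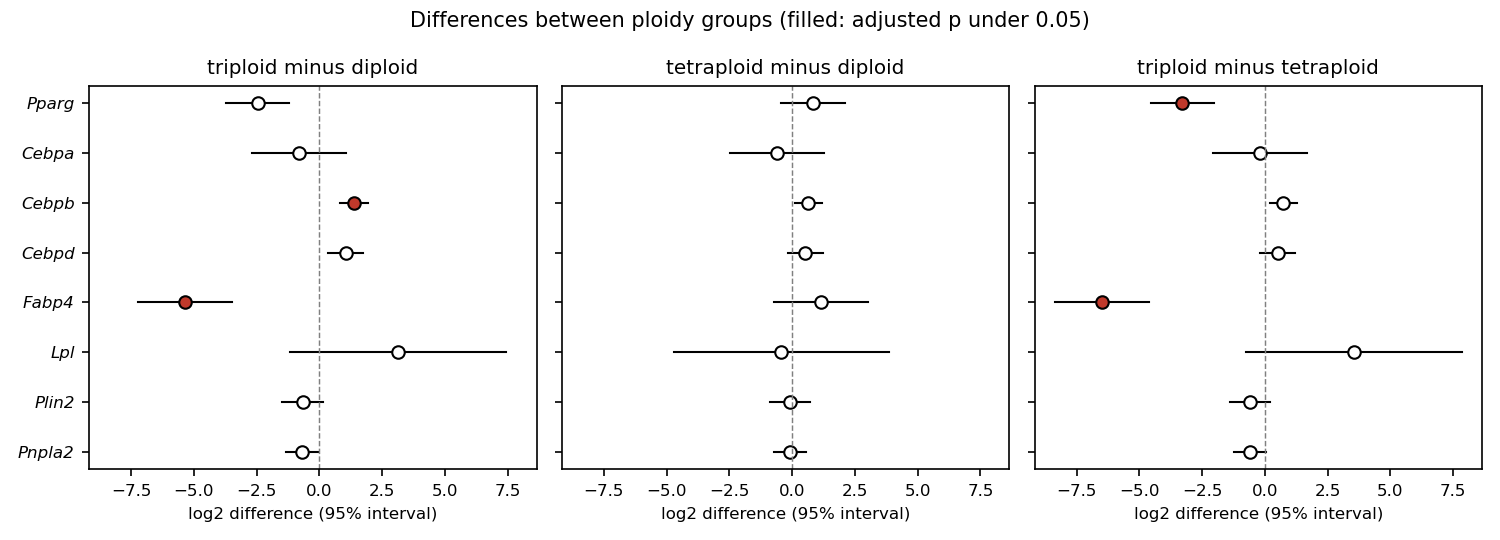
Log2 difference (x axis) with its 95% interval for the 8 genes that passed the filter (y axis), in 3 panels for triploid minus diploid, tetraploid minus diploid and triploid minus tetraploid clones. Filled circles passed at an adjusted p under 0.05: Fabp4 and Cebpb in the first panel, and Fabp4 and Pparg in the third.

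Between triploid and diploid clones, 1 of the 8 tested genes was called higher and 1 lower, and 1.84% of all features were called (0.615% higher and 1.22% lower). The groups did not overlap for 6 of the 8, with 28% of all features in that class: 2 lay above, beside 17.2% of features, and 4 below, beside 10.8%. An unadjusted p under 0.05 was found for 5 of the 8 and for 21.2% of features. Between tetraploid and diploid clones 0 of 8 passed in limma, and 1, Cebpb, had an unadjusted p under 0.05, as did 14.8% of features. There 0.0734% of features were called, all lower. The groups did not overlap for 2 of the 8, Cebpb and Cebpd, both above, beside 22.1% of features in either direction and 11% above. Between triploid and tetraploid clones 2 were called, both lower, with 2.7% of features called (1.09% higher and 1.61% lower). The groups did not overlap for 4 of the 8, beside 26% of features: 1 lay above, beside 14.7%, and 3 below, beside 11.3%. An unadjusted p under 0.05 was found for 3 of the 8 and for 20.8% of features. The median log2 difference of the 8 was -0.68, 0.23 and -0.39 in these 3 comparisons, against 0.10, -0.01 and 0.17 over all features. The comparisons share samples, so their values stand side by side and are not independent.

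The median of all features between triploid and diploid clones was 0.10, and it was -0.05 with the percentile taken over probes above background on all arrays. Relative to the median of all features, the triploid minus diploid differences were -5.44 for Fabp4, -2.56 for Pparg and 1.29 for Cebpb. This rescaling moves the median but leaves these relative differences unchanged.

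Other genes of fat cell differentiation were taken from 10 lists, also chosen with earlier results of these data known. The lists held 172 different genes, of which 171 were on the array and 132 entered the tests. Between triploid and diploid clones 4 fell and 0 rose in limma (3.03% of the 132, beside 1.84% of all features), with 40 at an unadjusted p under 0.05 in either direction, as had 21.2% of all features. Between triploid and tetraploid clones 8 fell and 0 rose (6.06%, beside 2.7%), with 40 at an unadjusted p under 0.05, as had 20.8% of all features. Between tetraploid and diploid clones 0 passed in limma and 20 of 132 had an unadjusted p under 0.05, as had 14.8% of all features, a share close to that of the list. The median log2 difference of the 132 was -0.14, -0.33 and 0.13 in that order, against 0.10, 0.17 and -0.01 over all features.

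The list for uptake and transport of fatty acids, with 19 tested genes, held 2 of the 4 that fell against the diploid clones. Of all features, 1.22% were called lower there. Angptl4, a secreted inhibitor of lipoprotein lipase and a known target of PPARs, had values of 0.95, 0.54 and 0.09 in the triploid clones, 2.81, 3.39 and 2.84 in the tetraploid clones and 3.50, 3.62 and 5.10 in the diploid clones. No triploid value reached those of the other groups, and the log2 difference was -3.55 ± 0.43 against the diploid clones (SE, adjusted p = 0.00832) and -2.49 ± 0.43 against the tetraploid clones (SE, adjusted p = 0.0253). Fabp3, the fatty acid carrier of heart and muscle and a relative of Fabp4, had -0.27, -0.12 and -0.19 in the triploid clones, 2.22, 0.48 and -0.01 in the tetraploid clones and 3.81, 3.59 and 4.21 in the diploid clones. It fell against the diploid clones by 4.07 on the log2 scale (adjusted p = 0.00832). Unlike Fabp4, its tetraploid values lay below the diploid ones, at a log2 difference of -2.98 ± 0.50 that did not pass (adjusted p = 0.0673).

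Lipid droplet genes were called between triploid and tetraploid clones at 2 of 13 tested, both lower, beside 1.61% of all features called lower. Plin4, a droplet coat protein of fat cells, had -2.19, -3.25 and -3.69 in the triploid clones, the last not above background, 2.71, 1.23 and 3.42 in the tetraploid clones and -0.77, -1.05 and 2.18 in the diploid clones. It fell by 5.50 on the log2 scale against the tetraploid clones (adjusted p = 0.0177), and its difference from the diploid clones was -3.16 (adjusted p = 0.0956). Diploid clone 3, which had the highest Fabp4 and Pparg of its group, also had the highest Plin4. The same clone had the lowest Lpl of its group, at -4.49 and not above background, and the lowest Cebpa, at -2.84. Hsd17b11, a dehydrogenase found on droplets, had 1.60, 0.30 and -0.31 in the triploid clones, 2.54, 2.99 and 3.15 in the tetraploid clones and 1.98, 2.03 and 2.17 in the diploid clones. Its triploid minus tetraploid difference was -2.37 ± 0.43 (SE, adjusted p = 0.0294).

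Of the 23 tested brakes on differentiation, 1 fell against the diploid clones, beside 1.22% of all features. Against the tetraploid clones 2 of the 23 fell, beside 1.61% of all features. Klf2, which represses the Pparg promoter in mouse precursor cells, had 1.67, -0.19 and 0.57 in the triploid clones, 3.57, 3.24 and 4.49 in the tetraploid clones and 3.26, 3.41 and 3.95 in the diploid clones. Its log2 difference was -2.86 ± 0.49 against the diploid clones (SE, adjusted p = 0.0296) and -3.08 ± 0.49 against the tetraploid clones (SE, adjusted p = 0.0177). Foxo1, a transcription factor restrained by insulin signalling, had 0.40, -0.22 and 0.57 in the triploid clones, 3.15, 3.28 and 2.88 in the tetraploid clones, and 2.32, 0.46 and 2.08 in the diploid clones. It fell by 2.85 on the log2 scale against the tetraploid clones (adjusted p = 0.0184), and diploid clone 2 lay among the triploid values.

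Between triploid and tetraploid clones, 1 of 9 tested secreted products was called, Apln, and 1 of 12 tested precursor surface markers, Ly6a. Both were lower in the triploid clones, beside 1.61% of all features called lower. Apln, the peptide hormone apelin, had 1.32, -2.18 and -0.68 in the triploid clones and 4.02, 4.91 and 3.55 in the tetraploid clones (-4.67 ± 0.98, SE, adjusted p = 0.0433). Ly6a, also called Sca-1, had 2.20, -2.31 and 0.40 in the triploid clones, 6.36, 5.21 and 7.34 in the tetraploid clones and 4.78, 4.98 and 4.09 in the diploid clones. It fell by 6.20 on the log2 scale between triploid and tetraploid clones (adjusted p = 0.0178), and its difference from the diploid clones was -4.52 (adjusted p = 0.0563).

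**Figure D4:**
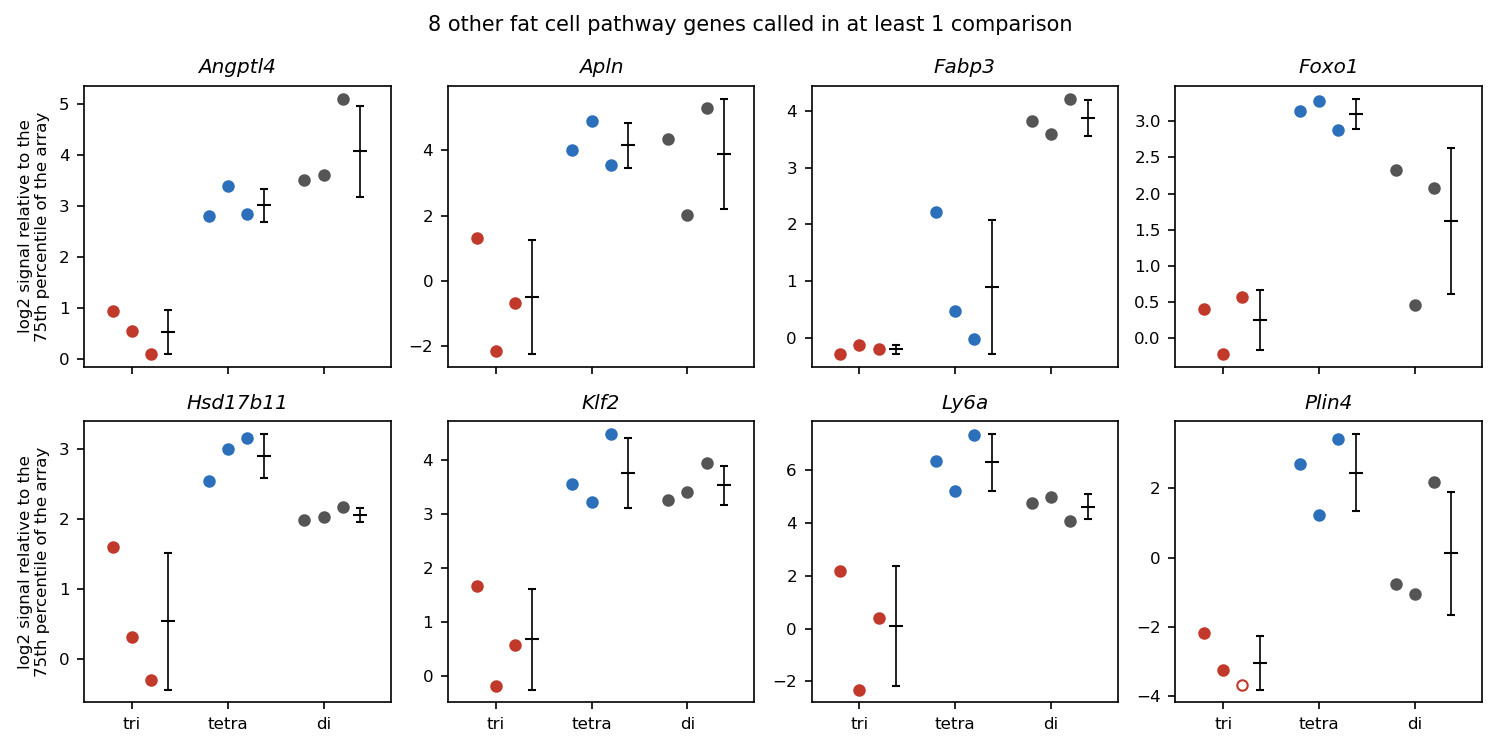
Log2 signal (y axis, minus the array’s 75th percentile, own scale per panel) of 8 other pathway genes called in at least 1 comparison, in triploid, tetraploid and diploid clones (x axis, clones 1 to 3 from left to right). Filled circles are well above background and open circles are not, with the mean and SD beside each group. The triploid clones lie below the tetraploid clones in all 8 panels, which were chosen by these tests.

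In the other 4 lists no gene passed. The genes below had the smallest p of their list in the comparison given. Among early regulators, with 19 tested, these were Egr2, at -2.43 in triploid minus diploid clones (adjusted p = 0.138), Crebl2, at 0.82 in tetraploid minus diploid clones (adjusted p = 0.390), and Stat5a, at -2.93 in triploid minus tetraploid clones (adjusted p = 0.0640). Among nuclear receptor partners and cofactors, with 15 tested, Rxrb, a partner of PPAR gamma, differed by 0.57 in triploid minus diploid clones (adjusted p = 0.157). Ppard differed by 0.38 in tetraploid minus diploid clones (adjusted p = 0.422), and the coactivator gene Ncoa1 by -0.99 in triploid minus tetraploid clones (adjusted p = 0.143). Of the other C/EBP genes, Cebpz differed by 1.41 in triploid minus diploid clones (adjusted p = 0.0998) and by 0.93 in triploid minus tetraploid clones (adjusted p = 0.222), and Cebpg by -0.28 in tetraploid minus diploid clones (adjusted p = 0.579). Of 14 tested PPAR targets, 2 are given. Hadha, an enzyme of fatty acid oxidation, differed by 0.84 in tetraploid minus diploid clones (adjusted p = 0.114), and Acadvl, of the same pathway, by -0.61 in triploid minus tetraploid clones (adjusted p = 0.141).

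Markers of cell types were read beside these values. Of 10 fat cell markers, 3 to 4 were above background per triploid clone, 2 to 4 per tetraploid clone and 3 to 4 per diploid clone. Lep, Retn, Slc2a4 and Pck1 were dark on all 9 arrays, while Cfd and Aqp7 were above background on all 9. The summed signal of the list, in multiples of the 75th percentile, was 0.897 to 2.48 in triploid, 0.589 to 0.989 in tetraploid and 0.898 to 1.20 in diploid clones. Mesenchymal markers were bright, with 10 to 11 of 12 above background in triploid clones, 11 to 12 in tetraploid and 11 to 12 in diploid clones, and sums of 1164 to 2651, 2422 to 3015 and 2325 to 3087 in that order. Col1a1, Col1a2, Col3a1, Pdgfra, Pdgfrb, Vim, Dcn, Fn1, S100a4 and Prrx1 were above background on all arrays. Of the 12, 1 was called, Lum, lower in triploid than in tetraploid clones, beside 1.61% of all features called lower. Lum was above background in 0 triploid, 3 tetraploid and 2 diploid clones. It thus passed the filter on dim probes only through the tetraploid clones, where it was high, and its call is not independent of that filter.

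Of 11 macrophage markers on the array, 4 to 5 were above background per triploid clone and 4 in each other clone, with sums of 17.8 to 25.9 in triploid, 16.4 to 24.3 in tetraploid and 26.6 to 40.2 in diploid clones. Of this list, Ptprc, Adgre1, Lyz2, Aif1, Mrc1 and C1qa were dark on all 9 arrays, and Csf1r, Itgam, Fcer1g and C1qb were above background on all 9. Of 10 endothelial markers, 3 were above background in each triploid clone, 3 to 5 in tetraploid and 3 to 4 in diploid clones, with sums of 19.4 to 36.6, 13.9 to 25.0 and 25.2 to 32.5. Pecam1, Kdr and Gpihbp1 were above background on all arrays, whereas Emcn, Cldn5 and Esam were dark on all. Of 8 muscle markers, 1 to 2 were above background per triploid clone, 1 to 2 per tetraploid clone and 2 in each diploid clone, with Myod1, Myog, Des, Actc1, Myh3 and Ckm dark on all arrays. Their sums were 2.21 to 9.88 in triploid, 5.23 to 7.20 in tetraploid and 4.54 to 6.81 in diploid clones. The part of these cell types in the differences of Fabp4, Pparg and Cebpb was not tested.

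The label of embryonic cells was read against pluripotency and epithelial markers. Of 8 pluripotency markers, 3 to 4 were above background per triploid clone, 4 per tetraploid clone and 3 to 4 per diploid clone, with sums of 1.56 to 2.58, 1.95 to 2.28 and 2.21 to 3.21. Pou5f1 and Zfp42 were dark on all arrays, and Nanog, Utf1 and Tdgf1 were above background on all 9. Of 8 epithelial markers, 2 to 5 were above background per triploid clone, 1 to 3 per tetraploid clone and 4 to 5 per diploid clone, with sums of 0.507 to 0.906, 0.479 to 0.764 and 0.714 to 2.52. Epcam and Cdh1 were dark on all arrays, and Krt14 was above background on all. Myl4, of the muscle list, was above background on all.

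For the 3 genes that passed a test, the named genes with the most similar values over the 9 clones were sought by Pearson's r among 12433 others, as a description. For Fabp4 they were Plekhb2 (r = 0.984), Mtss2 (r = 0.983) and Gulp1 (r = 0.982). For Pparg they were Snai2 (r = 0.988), Dpp8 (r = 0.980) and Hpgd (r = 0.978). For Cebpb they were Poll (r = 0.984) and Ahr (r = 0.982). With 9 clones in 3 groups, many genes that differ between the groups reach high values.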

How the data were processed

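Gene expression was measured on 9 one-colour arrays, 1 per clone. Per the file headers, spots were read with Agilent Feature Extraction 10.7.3.1 on a design drawn up on mm9. The deposited scanner files give the processed signal as intensity, after background subtraction and detrending within the array. The deposited table of log2 values matched the scanner signals, shifted per array and set against diploid clone 1, within 0.001 at 100% of probes; per the labels, that clone served for normalization. The table was used as an alternative. The files give no mean pixel signal, so the normexp alternative (offset 50) used median signals.

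Spots of a probe were averaged as log2, outlier spots left out, and each array centred on its 75th percentile. Of 55681 probes, 26413 had a symbol through RefSeq accessions (GRCm38.p6). A probe was kept when 1 or more groups had it well above background in each clone (25469 kept), and the brightest probe stood for a gene. One mean per group was fitted to 21797 features with limma 3.58.1 in R 4.3.3, with Benjamini-Hochberg adjustment and a threshold of 0.05. The fit was also run on simulated data with independent noise per feature. Such data lack deviations that a clone shares over many features, so they do not show how the fit behaves on these clones. Precision is limited by having 3 clones per group. The genes and lists were chosen with earlier results of these data known. Named are the 10 genes, each pathway gene called in any comparison, the gene of smallest p in lists with none called, and the 3 genes most like each called one. Some genes that this rule names are not reported here. Clone numbers did not pair the clones: deviations from group means correlated at -0.13 to 0.09 between clones of the same number. Alternatives were other scalings, filters and probe choices, slide or clone number as a block, and leaving out each clone.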

Additional observations from a re-analysis of the deposited data

How the results depend on the processing

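The count of called features between triploid and diploid clones was 400 (134 higher, 266 lower). It was 558 (119 higher, 439 lower) with the percentile over probes above background on all arrays, 103 without a filter on dim probes, 81 with slide as a block, 219 with clone number as a replicate block and 206 without the tetraploid clones, and 61 to 1434 with 1 clone left out. Between tetraploid and diploid clones it was 16, and 97 with that percentile, 5 with quantile normalization, 6 with normexp, 0 without a filter (3226 at an unadjusted p under 0.05 in the filtered limma fit), 0 with slide and 0 with clone number as a replicate block, and 0 to 40 with 1 clone left out. Between triploid and tetraploid clones it was 589, and 198 without a filter, 284 with slide as a block, 369 without the diploid clones and 117 to 1312 with 1 clone left out.

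Cebpb between triploid and diploid clones also missed the threshold without a filter (adjusted p = 0.102) and without the tetraploid clones (adjusted p = 0.0582). Clone number as a replicate block ended its call (adjusted p = 0.0534), brought Pparg past the threshold (adjusted p = 0.0148) and changed no other call of the 8 genes. Directions of uncalled differences turned for Lpl (0.172), Plin2 (0.0435) and Pnpla2 (0.128) between tetraploid and diploid clones with slide as a block, and for Cebpa (0.185) between triploid and tetraploid clones with dim signals at the lowest signal above background. With 1 clone left out, values ran from -1.15 to 0.11 for Cebpa, -2.12 to 0.68 for Lpl, -0.36 to 0.20 for Plin2 and -0.28 to 0.13 for Pnpla2 between tetraploid and diploid clones. Cebpa ran from -1.28 to 0.0162 between triploid and diploid clones and from -0.64 to 0.63 between triploid and tetraploid clones. The differences of Fabp4, Pparg, Cebpb and Cebpd kept their direction in each of 20 settings of each comparison. The causes of these shifts were not tested.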
